A study of Homo sapiens with 22 samples.

Results

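The regions described here are stretches of chromatin that carried a called peak of H3K27ac, acetylated lysine of histone H3, after 72 h of phorbol ester treatment and none before. They were chosen from the table of H3K27ac regions on chromosomes 1 to 22 and X: a region was a member if it overlapped, by at least 1 bp, a deposited peak of both 72 h libraries and of no 0 h or 6 h library. Of 94896 regions, 16169 were members. For comparison, 17164 regions carried a peak in all 6 H3K27ac libraries, and 2713 carried one in both 6 h and both 72 h libraries but in neither 0 h library.

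The cells were K562, a human leukemia line of wild-type genotype that carries the BCR::ABL1 fusion. The agent was 25 nM PMA, a phorbol ester under which K562 cells take on megakaryocyte features, given for 0, 6 or 72 h, so that the 0 h group is the untreated control. The 22 libraries fall into 11 groups of 2, profiled with antibodies to H3K27ac, Jun and CTCF at all 3 times, and to Rad21 at 0 and 72 h only. The sample titles read CNR, understood here to mean CUT&RUN: an antibody tethers a nuclease, which cuts free the DNA beside the antibody's target. Nothing in the labels says that replicates were separate cultures, so the p-values below measure the spread between these libraries, which may be technical. Expression of marker genes was not measured in these libraries. Acetylation peaks in both 0 h libraries lay within 20000 bp of 6 of 6 genes that mark K562 as erythroid-like (HBG1, HBG2, HBE1, GATA1, KLF1 and TAL1).

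Acetylation of H3K27 is written by coactivators such as CBP and marks active promoters and enhancers. PMA stands in for diacylglycerol: it activates protein kinase C, which signals through MAP kinases to AP-1, a family of dimers of Jun, Fos, ATF and Maf proteins. AP-1 binds the short palindromic motif TGANTCA, often within enhancers. Rad21 is a subunit of cohesin, the ring that extrudes chromatin loops, and CTCF is the zinc-finger protein at which cohesin often halts.

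Most members lay far from genes' starts, and no genome sequence was used here. The sequences that can be shown are therefore those of promoters, taken from RefSeq (GRCh38.p14) as 300 bases, 250 before and 50 after a gene start. The members held 411 gene starts of 383 genes. The motif TGANTCA, searched on both strands (it is its own reverse complement), was in 108 of these 411 promoters (26.3%). It was in 4.94% of the 10123 promoters whose start lay in a region with a peak in all 6 libraries, and in 7.68% of all 34961 promoters of the table. Among 192 protein-coding genes with a start in a member, 102 had a mean H3K27ac level at 72 h of at least 4-fold that at 0 h, and 31 of these promoters held the motif. The 5 with the highest acetylation at 72 h are printed first, to show where the motif lies. They are the promoters of SORBS2 (an adaptor of the actin cytoskeleton, chr4:185933079-185933378, minus strand), CEP85 (a centrosomal protein, chr1:26269029-26269328, plus strand), PRLR (the prolactin receptor, chr5:35118073-35118372, minus strand), BBC3 (PUMA, a trigger of apoptosis, chr19:47232618-47232917, minus strand) and GBP3 (a guanylate-binding protein, chr1:89022817-89023116, minus strand). The 2 without the motif and with the highest acetylation follow for contrast, those of OR7E24 (of the olfactory receptor family, chr19:9250680-9250979, plus strand) and PXN (paxillin, a focal adhesion adaptor, chr12:120250114-120250413, minus strand). These genes were chosen after their values were seen. Capitals mark TGANTCA, and each sequence reads 5′ to 3′ along its gene.
SORBS2: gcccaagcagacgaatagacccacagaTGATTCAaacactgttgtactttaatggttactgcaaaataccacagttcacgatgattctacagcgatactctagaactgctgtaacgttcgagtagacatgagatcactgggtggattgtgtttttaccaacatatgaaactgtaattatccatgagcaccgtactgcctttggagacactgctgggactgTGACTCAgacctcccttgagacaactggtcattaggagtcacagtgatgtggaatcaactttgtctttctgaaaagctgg
CEP85: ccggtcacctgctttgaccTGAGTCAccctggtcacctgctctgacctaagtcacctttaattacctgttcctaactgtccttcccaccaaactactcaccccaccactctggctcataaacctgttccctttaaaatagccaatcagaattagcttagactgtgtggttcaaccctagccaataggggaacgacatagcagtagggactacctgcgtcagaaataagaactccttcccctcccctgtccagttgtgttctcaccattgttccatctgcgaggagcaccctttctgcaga
PRLR: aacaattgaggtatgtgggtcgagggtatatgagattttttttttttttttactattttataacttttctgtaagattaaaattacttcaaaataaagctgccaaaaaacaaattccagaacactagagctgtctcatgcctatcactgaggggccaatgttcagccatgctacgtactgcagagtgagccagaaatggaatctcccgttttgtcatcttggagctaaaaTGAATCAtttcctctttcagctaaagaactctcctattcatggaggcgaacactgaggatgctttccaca
BBC3: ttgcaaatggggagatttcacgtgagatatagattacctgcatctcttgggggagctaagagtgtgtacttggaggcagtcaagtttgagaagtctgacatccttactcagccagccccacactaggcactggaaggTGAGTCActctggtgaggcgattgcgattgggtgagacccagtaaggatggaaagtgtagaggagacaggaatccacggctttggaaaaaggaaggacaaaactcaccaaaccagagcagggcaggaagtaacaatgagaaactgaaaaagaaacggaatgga
GBP3: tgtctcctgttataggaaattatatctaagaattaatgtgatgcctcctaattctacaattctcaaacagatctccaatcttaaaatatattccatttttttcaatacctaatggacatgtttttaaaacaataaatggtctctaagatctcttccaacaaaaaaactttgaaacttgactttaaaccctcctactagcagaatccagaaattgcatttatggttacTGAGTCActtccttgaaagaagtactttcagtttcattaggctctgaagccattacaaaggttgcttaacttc
OR7E24: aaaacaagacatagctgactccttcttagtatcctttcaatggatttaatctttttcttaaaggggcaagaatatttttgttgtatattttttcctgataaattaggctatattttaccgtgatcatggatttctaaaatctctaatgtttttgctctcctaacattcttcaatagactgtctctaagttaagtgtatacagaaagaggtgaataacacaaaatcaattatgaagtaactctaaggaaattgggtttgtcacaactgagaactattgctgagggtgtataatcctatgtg
PXN: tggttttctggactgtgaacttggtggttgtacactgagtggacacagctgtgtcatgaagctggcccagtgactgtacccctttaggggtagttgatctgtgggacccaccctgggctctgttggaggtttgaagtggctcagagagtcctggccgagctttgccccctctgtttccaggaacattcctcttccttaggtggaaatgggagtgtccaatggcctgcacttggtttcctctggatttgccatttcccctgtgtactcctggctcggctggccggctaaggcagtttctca
Counted from the gene start, with negative positions upstream, the motif began at −223 and −30 in SORBS2, at −231 in CEP85, at −20 in PRLR, at −113 in BBC3 and at −23 in GBP3. It was spelled TGATTCA and TGACTCA in SORBS2, TGAATCA in PRLR and TGAGTCA in the other 3.

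At the SORBS2 start, H3K27ac was 0.341 and 0.105 CPM (read counts relative to library sizes scaled by TMM) at 0 h, 0.63 and 0.787 at 6 h and then 31.9 and 33.5 at 72 h. Jun at the same place was 1.75 and 1.86 CPM at 0 h, 1.59 and 1.1 at 6 h and, at 72 h, 13.2 and 15.2. Both signals were near their floor until after 6 h, and the 72 h libraries stood apart from the other 4. The Jun region rose by a log2 fold change of 2.97 ± 0.291 (SE) between 0 and 72 h (edgeR adjusted p = 7.87e-08). At the PRLR start, H3K27ac was 0.114 and 0.158 CPM at 0 h, 2.38 and 1.57 at 6 h and then 13.8 and 16.8 at 72 h, and Jun rose by 1.43 ± 0.321 (edgeR adjusted p = 0.000809). At the BBC3 start, Jun had already reached its 72 h level at 6 h: it was 7.0 and 7.60 CPM at 0 h, 17.5 and 17.3 at 6 h and, at 72 h, 18.9 and 18.4. H3K27ac there was 1.99 and 1.48 CPM at 0 h, 5.74 and 6.45 at 6 h and then 14.1 and 15.8 at 72 h, so that acetylation went on to higher values while Jun stayed level. The Jun change did not pass the test at 2 of the 5 starts. At CEP85 the Jun log2 fold change was 0.03 ± 0.283 (edgeR adjusted p = 0.946) and at GBP3 it was 0.48 ± 0.269 (edgeR adjusted p = 0.142), with acetylation at 72 h of 19.2 and 18.8 CPM and of 14.4 and 15.1 CPM. Conversely, OR7E24, whose promoter window lacks the motif, had the largest Jun change of the 7, at 3.40 ± 0.318 (edgeR adjusted p = 4.67e-08), with H3K27ac at 0.681 and 0.422 CPM at 0 h, 13.4 and 12.9 at 6 h and, at 72 h, 59.9 and 68.9. At PXN the Jun change was 0.71 ± 0.31 (edgeR adjusted p = 0.0569).

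The other motifs searched in the same promoters, on both strands, split by the kind of promoter. Median GC content was 51.7% in promoters at members, 64.7% in those at regions with a peak in all 6 libraries and 58.7% in all promoters. The GATA letters AGATAA were in 14.4%, 4.92% and 10.3% of these 3 sets, in the same order, and the RUNX letters TGTGGT in 19.5%, 9.22% and 13.1%. The ETS letters CCGGAA, rich in G and C, ran the other way, with 13.1%, 36.1% and 17.3%. The cyclic AMP response element TGACGTCA was in 0.973%, 3.56% and 1.85%, the TEAD letters GGAATG in 16.5%, 10.5% and 14.0%, and the NF-kappaB letters GGGANTTCC in 1.70%, 2.59% and 1.84%. The longer Maf-type element (which contains TGANTCA) was in 0.73%, 0.237% and 0.418%, and a CTCF core motif was in 0.243%, 0% and 0.0172%. The sets differ in base composition, whose part in these shares was not tested.

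H3K27ac itself chose the members, so its values are given as a description. The median member had 0.681 and 0.632 CPM in the 0 h libraries, 2.03 and 1.82 at 6 h and then 5.50 and 5.46 at 72 h. Acetylation was thus already above its 0 h level at 6 h, although no 6 h peak had been called. The median log2 fold change was 1.36 from 0 to 6 h and 1.55 from 6 to 72 h, beside 0.20 and 0.02 over all regions tested. Both 6 h libraries lay above both 0 h libraries at 12191 members (75.4%; 43.5% of all regions), and both 72 h libraries lay above both 6 h libraries at 14212 (87.9%; 42.3% of all regions). Over the 15564 members whose mean level was higher at 72 than at 0 h, the median share of that gain present at 6 h was 19.3%, and 2822 of them had passed the midpoint by 6 h. The 72 h level of the median member stayed well below that of a region with a peak in all 6 libraries, which had 21.7 and 22.4 CPM at 72 h and 31.6 and 32.5 CPM at 0 h.

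**Figure D1:**
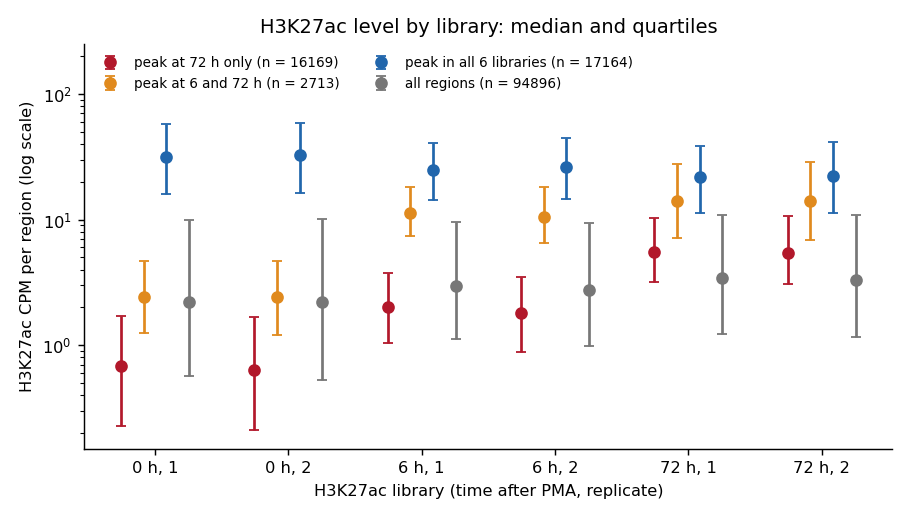
H3K27ac CPM per region (log scale) in each of the 6 H3K27ac libraries, as the median (point) with the lower and upper quartile (bars), for members, 2 other classes of region and all regions. The members' median moves from 0.681 and 0.632 CPM at 0 h to 5.50 and 5.46 CPM at 72 h, and lies below that of the other peak classes throughout.

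The peak rule did not always pick a region whose acetylation was highest at 72 h. At 619 members (3.83%) both 6 h libraries lay above both 72 h libraries, and at 416 (2.57%) both 0 h libraries did. The same shares over all regions were not counted. The median of those 416 was 7.67 and 7.90 CPM at 0 h against 5.07 and 4.86 CPM at 72 h. At the other end, 354 members (2.19%, against 2.23% of all regions) had no count in either 0 h library. At most 3 counts over both were found at 1428 (8.83%, against 7.29% of all regions). Members thus differed little from all regions in this respect. Peak calling depends on depth as well as level, and the 72 h H3K27ac libraries were the deepest, with 26216577 and 27266241 counts in regions against 12634261 to 21772218 in the earlier libraries. The part of depth in the choice of members was not tested. With both 72 h peaks held to a −log10 q of at least 10, 5237 members were left.

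Just inside the rule, the member with the lowest peak score was a 333 bp region outside any gene span (chr2:111705700-111706032, nearest protein-coding gene ANAPC1). It had 0.227 and 0.58 CPM at 0 h, 1.12 and 1.18 at 6 h and, at 72 h, 1.30 and 1.20. The next lies near CBFA2T3 (chr16:89018196-89018654), with 1.14 and 0.79 CPM at 0 h, 2.31 and 2.07 at 6 h and then 1.74 and 1.57 at 72 h. Just outside, with a strong peak in only 1 of the 72 h libraries, were a region in PRKAR1B (chr7:601991-602241), at 5.05 and 5.64 CPM at 0 h and 7.20 and 8.89 at 72 h, and one in LOC124902693 (chr11:65827726-65828208), at 0.681 and 0.263 CPM at 0 h and 3.08 and 1.53 at 72 h. In all, 11506 regions (chromosome 8 not counted) missed the rule by 1 library in this way. The levels just inside and just outside the rule overlapped.

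Members were narrower and farther from genes' starts than acetylated regions present throughout. Their median width was 840 bp, against 1721 bp for regions with a peak in all 6 libraries and 623 bp for all regions. Of the members, 66.7% overlapped a gene span (84.5% of regions with a peak in all 6 libraries, 72.6% of all regions). Gene starts on chromosome 8 were not available. Of the 15438 members elsewhere, 2.39% contained a gene start, against 40.0% and 9.66%. The median distance to a gene start was 25532.5 bp for members and 2435 bp for regions with a peak in all 6 libraries. It was 19406 bp for all regions and 19090.5 bp for those with peaks at 6 and 72 h, nearer to that of members. The nearest region with a peak in all 6 libraries was a median of 45179 bp from a member. For regions with peaks at 6 and 72 h it was 22442 bp away. The gene table gives no exons, so exonic and intronic members could not be told apart.

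Some members came in runs. Joining members that lay close together, by the gap often used to stitch enhancers, gave 12516 stretches, of which 9966 held 1 member and 694 held 3 or more, with 2491 members (15.4%) in the latter. The longest held 10 members over 51100 bp between genes on chromosome 6 (chr6:35147032-35198131), overlapping the span of the non-coding LOC112267955. Its summed H3K27ac was 7.5 and 10.1 CPM at 0 h, 24.3 and 24.1 at 6 h and, at 72 h, 345.7 and 397.1. A stretch of 9 members spanned NSMCE1 and IL4R, the interleukin-4 receptor (chr16:27264392-27322067), with a sum of 5.40 and 4.69 CPM at 0 h, 38.6 and 34.5 at 6 h and then 165.3 and 189.5 at 72 h. Another 9 lay in TSPAN9, a tetraspanin found on platelets (chr12:3073667-3129933), with 1.65 and 1.32 CPM at 0 h, 4.97 and 3.45 at 6 h and, at 72 h, 96.4 and 105.8. These runs were at a few percent of their 72 h sum at 0 h, and the TSPAN9 run was still so at 6 h. Other runs of 8 or 9 lay at LINC01655, at P2RY6 with ARHGEF17, at ARHGAP22, at CACNA1G with ABCC3, and at NRXN2, with sums at 72 h between 65.3 and 211.4 CPM.

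The 8 members outside chromosome 8 with the highest H3K27ac at 72 h were not alike in when they were acetylated. The highest lay in the immunoglobulin lambda locus IGL (chr22:22726816-22729618), with 5.57 and 4.85 CPM at 0 h, 64.2 and 61.1 at 6 h and then 215.9 and 223.9 at 72 h. K562 is known to carry extra copies of the neighbouring BCR region, and the counts were not corrected for copy number. The member in PTPRM, a receptor phosphatase of cell contacts (chr18:8115132-8117546), was also well above its 0 h level by 6 h, with 0.909 and 0.949 CPM at 0 h, 51.9 and 50.5 at 6 h and, at 72 h, 117.2 and 143.1. In contrast, the member in TRIO, a guanine nucleotide exchange factor (chr5:14448549-14451968), had 1.02 and 0.422 CPM at 0 h, 4.62 and 4.82 at 6 h and then 135.5 and 152.4 at 72 h. The one in ARHGAP22, which inactivates the GTPase Rac (chr10:48589032-48592521), had 0.341 and 0.632 CPM at 0 h, 2.80 and 2.21 at 6 h and, at 72 h, 107.5 and 115.1. In these 2 nearly all of the 72 h signal appeared after 6 h. The ratio of mean levels at 72 and 6 h was 30.5 for TRIO and 44.4 for ARHGAP22, against 3.51 for IGL and 2.54 for PTPRM. The others lay in the T cell receptor beta locus TRB (chr7:142669113-142672064), in LOC105377885 (chr6:88376922-88380829), in PPFIBP1, which encodes liprin beta 1 (chr12:27574112-27576085), and in LOC124902904 (chr12:27160949-27163755), with 72 h levels from 90.0 to 128.1 CPM.

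Jun, which the rule did not use, was called higher at 72 than at 0 h at 7 of these 8 (28% of all Jun regions and 66.5% of those at members were called higher). At IGL it was 43.5 and 40.3 CPM at 0 h, 96.5 and 99.8 at 6 h and then 218.0 and 197.4 at 72 h, a log2 fold change of 2.31 ± 0.201 from 0 to 72 h (edgeR adjusted p = 2.17e-08). At PTPRM it was 14.2 and 9.17 CPM at 0 h, 67.0 and 93.4 at 6 h and, at 72 h, 83.8 and 79.5, so that its rise of 2.79 at 6 h (edgeR adjusted p = 1.19e-07) was near the 2.81 ± 0.236 seen at 72 h (edgeR adjusted p = 1.57e-08). At TRIO it was 2.77 and 2.72 CPM at 0 h, 5.22 and 3.65 at 6 h and then 23.4 and 18.97 at 72 h, with 0.67 at 6 h (edgeR adjusted p = 0.179) and 2.94 ± 0.261 at 72 h (edgeR adjusted p = 2.63e-08). Jun and acetylation were thus both above their 0 h levels by 6 h at IGL and PTPRM. After 6 h both went on rising at IGL, but only acetylation did so clearly at PTPRM. At TRIO most of both rises came after 6 h. The exception among the Jun calls of these 8 was LOC105377885. Jun there was 14.6 and 13.04 CPM at 0 h, 7.49 and 6.02 at 6 h and, at 72 h, 18.3 and 15.7 (0.30 ± 0.198, edgeR adjusted p = 0.212). H3K27ac there went from 9.03 and 8.38 CPM at 0 h to 105.9 and 128.1 at 72 h.

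**Figure D2:**
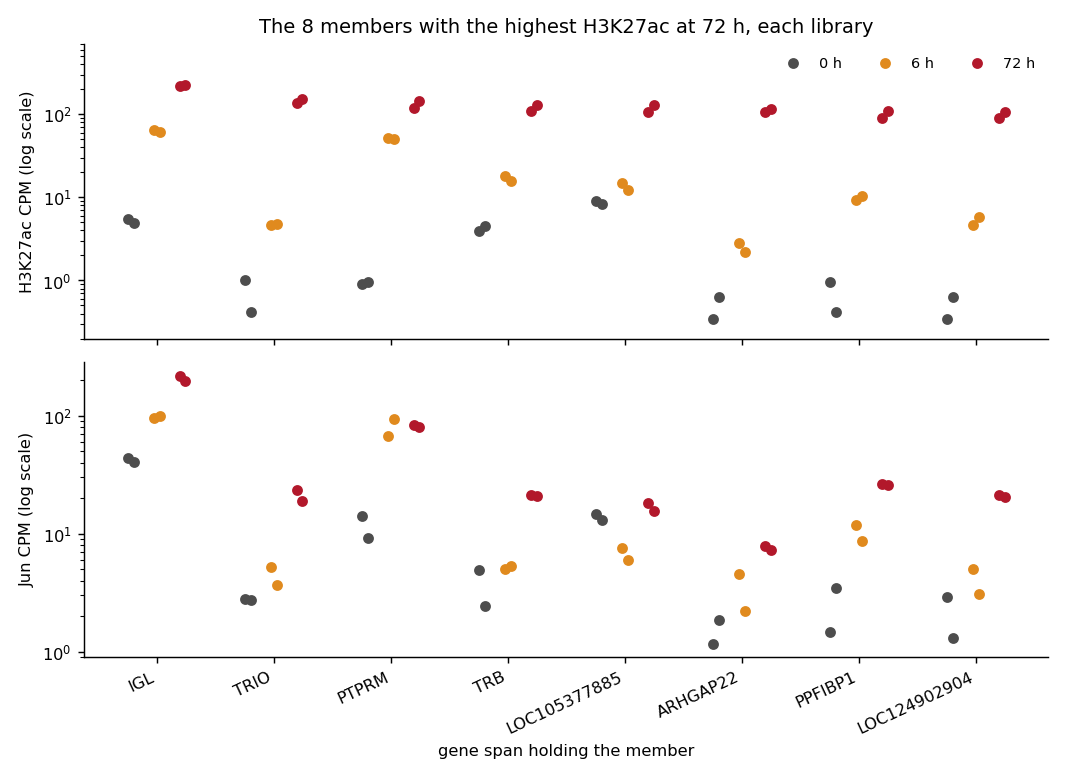
H3K27ac CPM (upper panel) and Jun CPM (lower panel), both on a log scale, in each library. Shown are the 8 members outside chromosome 8 with the highest H3K27ac at 72 h. Each point is 1 library, coloured by time; the 6 h points of IGL and PTPRM stand well above their 0 h points, whereas in TRIO and ARHGAP22 most of the distance lies between 6 and 72 h.

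Across all members, Jun peaks were rare before 72 h and common at 72 h. A Jun peak overlapped 11.5% and 13.2% of members in the 0 h libraries, 14.1% and 26.4% at 6 h, and 84.1% and 86.1% at 72 h. A peak in both 72 h Jun libraries was present at 81.4% of members, 75.6% of regions acetylated throughout and 53.8% of all H3K27ac regions. Regions acetylated throughout differed from members more at 0 h than at 72 h: 61.1% of them carried a Jun peak in both 0 h libraries, against 8.47% of members. At 7734 members (47.8%; 18.8% of all regions) Jun peaks were in both 72 h libraries and in none before, and at 993 (6.14%; 3.07%) they were in both 6 h and both 72 h libraries but not at 0 h. Another 1344 members (8.31%; 20.5%) had Jun in both 0 h and both 72 h libraries, and 1755 (10.9%; 33.3%) had no Jun peak in any library. The Jun libraries also differed in depth, with 17245043 and 18883962 counts at 72 h against 4766421 to 8600736 before. Mitochondrial DNA took 24.0% and 27.7% of the Jun counts at 0 h and 9.07% and 8.58% at 72 h. The part of depth in the peak shares was not tested.

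**Figure D3:**
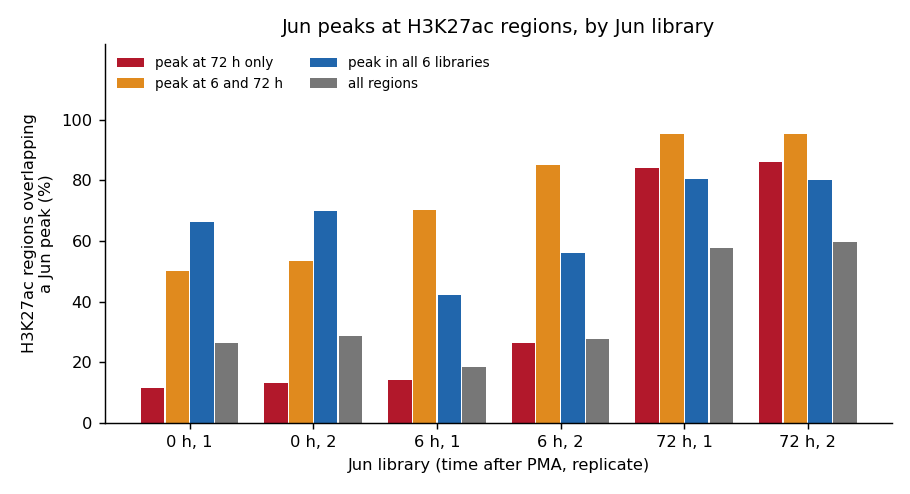
Percent of H3K27ac regions that overlap a Jun peak in each of the 6 Jun libraries, for members, 2 other classes and all regions (bars start at 0). Members go from 11.5% and 13.2% at 0 h to 84.1% and 86.1% at 72 h, whereas regions with a peak in all 6 H3K27ac libraries are already at 66.2% and 69.8% at 0 h.

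Acetylation moved at a different time in these groups. Members with Jun in both 6 h and both 72 h libraries but not at 0 h had a median H3K27ac log2 fold change of 2.62 from 0 to 6 h and 1.14 from 6 to 72 h. For members with Jun at 72 h only the order was reversed, 1.42 and then 1.99. Members without any Jun peak had 0.73 and 1.26, and were narrower (median 624 bp against 881 bp for those with Jun at 72 h only). These medians are descriptions, since H3K27ac chose the members.

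Counts of Jun, tested over all Jun regions, gave the same order as the peaks. Of 16058 Jun regions that overlapped a member, 15946 passed the filter on low counts. Between 0 and 72 h, 10604 of them (66.5%) were called higher at an adjusted p-value under 0.05, where 28% of all Jun regions were called higher, and 565 (3.54%) were called lower, where 25.7% were. The median log2 fold change was 1.30 at members and 0.17 over all Jun regions. Between 0 and 6 h, 3906 (24.5%; 13.1% of all) were called higher and 761 (4.77%; 12.2% of all) lower, with a median of 0.44. Between 6 and 72 h, 6699 (42.0%; 12.7% of all) were called higher and 269 (1.69%; 13.5% of all) lower, with a median of 0.77. The comparisons share libraries. The last count fell to 3331 and 3024 without the first or the second 72 h library, and its median stayed at 0.76 in both. Scaling by total counts, or by regions with a peak in every Jun library, moved the median of all Jun regions from 0 to 72 h to 0.73 and 0.94. The median at members moved to 1.87 and 2.08. A change of scaling shifts all regions nearly alike, so the distance of 1.13 between these medians could hardly change and tests nothing.

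At regions acetylated throughout, Jun went the other way. Of 20741 tested Jun regions there, 774 (3.73%) were called higher and 12536 (60.4%) lower between 0 and 72 h, with a median log2 fold change of −0.85 (−0.29 by total counts and −0.08 by regions with a peak in every Jun library). With all Jun regions as the yardstick, this median lay 1.02 below theirs and the members' median 1.13 above. At regions with acetylation peaks at both 6 and 72 h, Jun was above its 0 h level at both later times: 1702 of 3003 (56.7%) were called higher between 0 and 6 h and 1625 (54.1%) between 0 and 72 h, and 205 (6.83%) between 6 and 72 h. In that last step 707 (23.5%) were called lower, with a median of −0.24. At members, 42.0% were called higher and 1.69% lower in the last step.

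**Figure D4:**
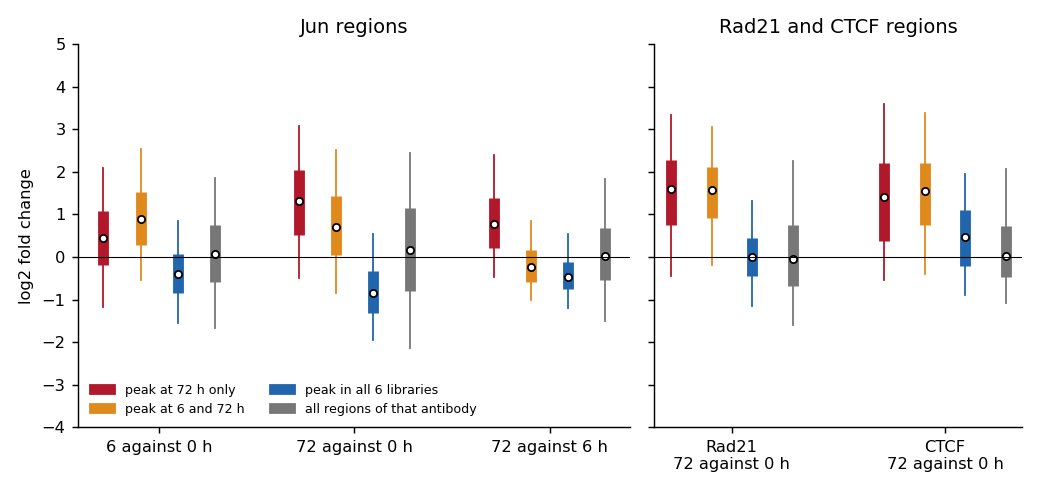
Log2 fold changes of Jun regions (left, 3 comparisons) and of Rad21 and CTCF regions (right, 72 against 0 h) that overlap members or the other classes of H3K27ac region, and of all regions of that antibody. White points are medians, thick bars the quartiles and thin lines the 5th to 95th percentile; for Jun at members the medians are 0.44, 1.30 and 0.77.

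Across 14838 members with a tested Jun region, the log2 fold change of Jun from 0 to 72 h followed that of H3K27ac with a Pearson r of 0.742 and a Spearman rho of 0.773. This is a correlation across members, which share their libraries and are no replicates, and no p-value belongs to it. H3K27ac chose the members, and the correlation was not computed over other regions, so it is no trait particular to members. By the call of its strongest Jun region, 9888 members had Jun called higher, 4395 not called and 555 called lower. Members with Jun called higher started lower in H3K27ac, with medians of 0.398 and 0.422 CPM at 0 h, and ended higher, with 6.62 and 6.63 CPM at 72 h. Members with Jun called lower had 3.12 and 3.06 CPM at 0 h and 4.42 and 4.12 at 72 h.

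Jun sat near the middle of the members. A Jun summit from the 72 h libraries lay within 78.6% of members, at a median of 138 bp from the member's centre, and 37.6% of these summits were within 100 bp of it. In the wider regions acetylated throughout, the median was 279 bp, and 20.7% were within 100 bp. Over all regions the median was 144 bp and the share 37.4%, so members did not stand out from regions in general in this respect. Whether summits lay closer than region width alone would put them was not tested.

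**Figure D5:**
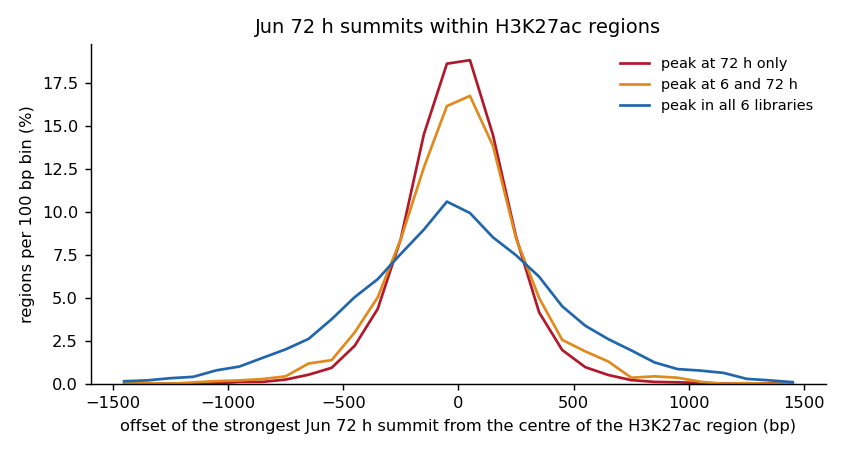
Distance in bp of the strongest Jun 72 h summit from the centre of the H3K27ac region that holds it, as the percent of regions per 100 bp bin, for members and 2 other classes. The curve of members is narrower (median 138 bp) than that of the wider regions with a peak in all 6 libraries (median 279 bp).

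The Jun regions with the largest rise at members had next to no counts before PMA. The rule named regions outside chromosome 8 that were called, had at least the median mean CPM and did not overlap between 0 and 72 h. The largest lay outside any gene span (chr2:71841620-71842227, 154856 bp from DYSF), with 1 count over both 0 h libraries, 20 and 21 at 6 h, rising to 270 and 277 at 72 h, a ratio of 170 (exact 95% interval 30.3 to 6715) in CPM. H3K27ac over it was 0.227 and 0.211 CPM at 0 h, 1.19 and 0.787 at 6 h and then 18.9 and 21.2 at 72 h. The next, in the scavenger-receptor gene DMBT1 (chr10:122595210-122595827), went from 3 counts over both 0 h libraries through 17 and 3 at 6 h to 207 and 167 at 72 h, a ratio of 38.7 (exact 95% interval 13.1 to 188). The third, in LOC124903904 (chr17:6239371-6239986), went from 3 counts over both 0 h libraries to 164 and 209 at 72 h, a ratio of 38.6 (exact 95% interval 13.1 to 188). In each of these the 0 h count was at the floor, and the intervals, which cover counting error only, are wide. In MAPK4, an atypical MAP kinase gene (chr18:50719282-50719991), Jun was 1.02 and 0 CPM at 0 h, 5.45 and 3.65 at 6 h and, at 72 h, 17.6 and 14.9 (log2 fold change 4.97 ± 0.452, edgeR adjusted p = 3.45e-08). A region inside the long chromosome 6 stretch (chr6:35170868-35171528) had 0 and 0.717 CPM at 0 h, 1.82 and 0.182 at 6 h and then 10.7 and 12.4 at 72 h (4.96 ± 0.545, edgeR adjusted p = 2.96e-07), and here only the first 6 h library lay above both 0 h libraries.

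Jun also fell at a few members. In DIABLO, an activator of caspases (chr12:122223558-122224112), Jun was 42.4 and 45.0 CPM at 0 h, 3.18 and 6.57 at 6 h and, at 72 h, 6.18 and 7.73, a log2 fold change of −2.65 ± 0.213 (edgeR adjusted p = 1.13e-08). The H3K27ac values of the member there overlapped between all 3 times, at 5.57 and 5.06 CPM at 0 h, 5.25 and 4.58 at 6 h and then 5.97 and 4.26 at 72 h. In POC1B-AS1 (chr12:89539428-89540095), Jun was 16.8 and 10.2 CPM at 0 h, 2.27 and 2.19 at 6 h and, at 72 h, 2.33 and 2.63 (−2.43 ± 0.274, edgeR adjusted p = 4.08e-07), with H3K27ac between 5.96 and 7.46 CPM in the 6 libraries. At both, most of the Jun signal was gone by 6 h, and a peak called at 72 h alone did not mean a clear gain of acetylation.

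Cohesin increased at many of the Rad21 regions that overlapped members, although few members carried a Rad21 peak. A Rad21 peak in both 72 h libraries overlapped 1213 members (7.502%; 12.6% of all regions and 38.4% of regions acetylated throughout). A Rad21 peak in both 0 h libraries overlapped 399 members (2.47%; 13.9% of all regions). The shares called below are of Rad21 regions, not of members. Of 6765 Rad21 regions that overlapped a member, 6368 were tested, and 3525 (55.4%) were called higher at 72 than at 0 h, where 15.4% of all Rad21 regions were called higher. In the other direction 43 (0.675%) were called lower, where 7.91% of all were. The median log2 fold change was 1.59 at members and −0.05 over all Rad21 regions, and the median level at members went from 1.57 and 1.69 CPM at 0 h to 4.91 and 4.52 CPM at 72 h. Without the first or the second 72 h Rad21 library, 1639 and 2197 regions were called higher, with medians of 1.55 and 1.68. With regions held to a mean count of at least 50, 514 were tested, 205 (39.9%, against 14.9% of all) were called higher and the median was 0.41. The main filter on low counts could be passed through the 72 h libraries alone, and how many regions did so was not counted. Without that filter, 3734 of 6765 (55.2%, against 12.8% of all) were called higher, with a median of 1.64. Rad21 moved with Jun across the members that had a tested Rad21 region. The strongest Rad21 region was called higher at 2911 of 4034 such members (72.2%) whose Jun was called higher. It was called higher at 406 of 1499 (27.1%) whose Jun was not called and at 34 of 315 (10.8%) whose Jun was called lower. The r between the log2 fold changes of Rad21 and H3K27ac was 0.623 (rho 0.648) across 5994 members, and it too was not computed over other regions.

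A new Rad21 peak, present in both 72 h libraries and in neither 0 h library, was called at 837 members (5.18%; 3.26% of all regions). Of these, 827 (98.8%) carried a Jun peak in both 72 h libraries, against 95.3% of the new Rad21 peaks over all regions, and 523 (62.5%) overlapped no CTCF peak in any library, against 56.3%. At regions with acetylation peaks at 6 and 72 h, new Rad21 peaks were more frequent, at 22.2%. The named Rad21 region with the largest rise lay outside genes (chr18:22692352-22692859). It had 3 counts over both 0 h libraries and 69 and 49 at 72 h, a ratio of 36.3 (exact 95% interval 12.1 to 179). The second was in the pseudogene KLKP1 (chr19:50890662-50891125), with 3 counts over both 0 h libraries and 63 and 38 at 72 h, a ratio of 31.1 (exact 95% interval 10.3 to 153). The calls of the named falls were lost when 1 library was left out, while the direction stayed: in PCSK5, Rad21 was 6.92 and 5.70 CPM at 0 h and 1.49 and 2.45 at 72 h (−1.70 ± 0.448, edgeR adjusted p = 0.00849), and the left-out fits gave −2.00 to −1.32 with an adjusted p of up to 0.167. In EVC it was 5.82 and 6.97 CPM at 0 h and 1.34 and 2.83 at 72 h (−1.64 ± 0.456, edgeR adjusted p = 0.0121), and the left-out fits gave −2.15 to −1.11 with an adjusted p of up to 0.261.

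CTCF was found at few members, and the number of its calls there was not stable. A CTCF peak in both 72 h libraries overlapped 804 members (4.97%; 7.98% of all regions), and one in both 0 h libraries 492 (3.04%; 6.86%). Of 2992 CTCF regions overlapping a member, 2634 were tested, and 538 (20.4%) were called higher at 72 than at 0 h, where 4.07% of all CTCF regions were called higher, and 20 (0.759%) lower, where 2.72% were. The median log2 fold change was 1.40 at members and 0.03 over all CTCF regions. Between 0 and 6 h, 29 were called higher (1.1%; 2.33% of all) and 1 lower (0.038%; 0.325% of all), and between 6 and 72 h, 68 were called higher (2.58%; 0.449% of all) and 8 lower (0.304%; 1.73% of all). The calls depended on single libraries: leaving out the first 0 h library left 25 higher, and leaving out the second left 0 higher in edgeR, with 1109 at an unadjusted p under 0.05 in each case. Leaving out the first or the second 72 h library left 89 and 65, while leaving out the first or the second 6 h library gave 1021 and 1027. The median stayed between 1.39 and 1.49 in all 6. With regions held to a mean count of at least 50, 565 were tested, 51 (9.03%, against 2.03% of all) were called higher and the median was 0.27. As for Rad21, CTCF regions could pass the main filter through the 72 h libraries alone, and how many did was not counted. Without that filter, 570 of 2992 (19.1%, against 3.99% of all) were called higher, with a median of 1.46. CTCF called higher was found at 471 of 1609 tested members (29.3%) whose Jun was called higher and at 48 of 680 (7.06%) whose Jun was not called.

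The largest named CTCF rise was near KPNA4 (chr3:160577534-160578184), with 2.04 and 2.89 CPM at 0 h, 6.15 and 6.51 at 6 h and then 14.98 and 20.4 at 72 h (log2 fold change 2.87 ± 0.403, edgeR adjusted p = 0.00274). Another near WDFY4 (chr10:48993505-48994063) had 2.55 and 2.17 CPM at 0 h, 9.06 and 8.14 at 6 h and, at 72 h, 12.7 and 18.5 (2.71 ± 0.409, edgeR adjusted p = 0.00321). CTCF fell in DAPK1, a death-associated kinase (chr9:87662645-87663210), from 19.4 and 25.3 CPM at 0 h to 7.60 and 6.32 at 72 h (−1.68 ± 0.305, edgeR adjusted p = 0.00753). It also fell near DEDD (chr1:161139609-161140224), from 38.5 and 42.2 CPM to 13.6 and 16.0 (−1.43 ± 0.262, edgeR adjusted p = 0.00783). In all 4 the groups at 0 and 72 h did not overlap, but none of the calls held with each library left out: the highest adjusted p was 0.0526, 0.0676, 0.111 and 0.106, in the same order.

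Members gathered in certain gene spans, long ones above all. The spans named here lie outside chromosome 8. IGL (896838 bp) and CAMTA1 (a calmodulin-binding transcription activator, 984253 bp) each held 29, followed by RAD51B with 25, TRB with 20, DPF3 and SNX29 with 19, and TRIO, BACH2, MSI2 and ARHGAP26 with 18 each. Summed over its members, H3K27ac in CAMTA1 was 6.02 and 6.48 CPM at 0 h, 36.7 and 29.8 at 6 h and then 540.5 and 620.6 at 72 h. In TRIO the sum was 6.53 and 6.27 CPM at 0 h, 36.0 and 33.7 at 6 h and, at 72 h, 411.2 and 451.7. In IGL it was 58.8 and 63.8 CPM at 0 h, 180.9 and 163.6 at 6 h and then 580.9 and 583.8 at 72 h. At 6 h each of these sums lay well above both of its 0 h values. Those of CAMTA1 and TRIO were then a smaller part of their 72 h sums than that of IGL. Per 100 kb of span, DPF3, a subunit of BAF chromatin remodelling complexes, had the most of these 10 (6.67) and RAD51B the fewest (2.90). Jun peaks in both 72 h libraries lay at 10 to 27 of the members of each span, among them 27 of 29 in IGL and 10 of 19 in SNX29.

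Genes of the megakaryocyte programme, the adhesion machinery and the phorbol ester pathway often had members close by. Over all protein-coding genes, 39.8% had at least 1 member within 20000 bp of their span, and long genes have more room for one. The median span was 24170.5 bp over all protein-coding genes. It was longer in the lists of protein kinase C genes (161721 bp), megakaryocyte transcription factors (133440 bp), adhesion genes (57711 bp), TGF-beta genes (50546 bp) and DNA replication genes (30350.5 bp), and in the other 10 lists between 2904 bp (chemokines and cytokines) and 23688 bp (monocyte and macrophage genes). Of 31 megakaryocyte and platelet genes, 18 had a member that near, with 43 members. Of 38 Jun regions tested at those members, 29 were called higher between 0 and 72 h and 1 lower. The background was 28% higher and 25.7% lower over all Jun regions. Over the Jun regions at all members it was 66.5% higher and 3.54% lower. Both backgrounds hold for the Jun calls of each list below, and list shares near the latter are no trait of a list. ITGA2, the collagen-receptor integrin alpha 2, had 8. The strongest (chr5:52987071-52988748) had 0.227 and 0.527 CPM of H3K27ac at 0 h, 6.58 and 3.49 at 6 h and, at 72 h, 32.4 and 40.1, and Jun rose there by 2.04 ± 0.219 (edgeR adjusted p = 2.19e-07). TBXAS1, thromboxane synthase, had 6, and the strongest (chr7:139936551-139937920) went from 2.90 and 2.74 CPM at 0 h through 8.40 and 8.12 to 23.7 and 26.2 at 72 h. VWF, von Willebrand factor, had 4, and the strongest (chr12:6069040-6070272) went from 0.227 and 0.527 CPM through 3.5 and 3.89 to 12.3 and 11.8. No member lay within that distance of ITGA2B, GP9 or F13A1, also of this list. At 2 of the 43 members H3K27ac was lower at 72 than at 0 h. The member in NFE2 was among them, with 17.9 and 21.3 CPM at 0 h and 12.8 and 14.3 at 72 h.

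Of 12 megakaryocyte transcription factor genes, 10 had members, with 35 in all, and of 32 tested Jun regions there 21 were called higher and 3 lower. At 4 of the 35 members H3K27ac was lower at 72 than at 0 h. The strongest by GATA1 was among them (chrX:48782994-48783574), with 21.3 and 22.3 CPM at 0 h and 12.7 and 12.1 at 72 h. RUNX1, which is needed for megakaryocyte maturation, had 8, and the strongest (chr21:35046811-35047484) had 14.0 and 12.2 CPM at 0 h, 9.24 and 12.4 at 6 h and then 14.5 and 18.9 at 72 h, values that lie close together. ERG, an ETS factor of megakaryocytes, had 7, and the strongest (chr21:38476233-38477304) went from 0.852 and 0.474 CPM through 2.59 and 2.17 to 11.7 and 11.3, with a Jun rise of 1.81 ± 0.233 (edgeR adjusted p = 1.94e-06). MEIS1 had 4. The erythroid genes stood at the low end, with members near 4 of 17 (ALAS2, SLC4A1 and HEMGN among them) and none near the globin genes HBG1, HBG2, HBE1, HBZ, HBA1 and HBA2. The rule bars regions with a 0 h peak. Regions with a peak in both 0 h libraries numbered 4 each near HBG1, HBG2 and HBE1 and 6 near KLF1. GATA1 and TAL1, with 6 and 3 such regions, had 2 members each. The part of the rule in the low share was not tested. The strongest member near ALAS2, an enzyme of haem synthesis (chrX:55008496-55009189), reached 3.11 and 2.95 CPM at 72 h. Of 11 monocyte and macrophage genes, CSF1R alone had members, and the strongest of its 5 (chr5:150043527-150044823) lay in the neighbouring HMGXB3, with 10.6 and 9.49 CPM at 0 h and 13.9 and 13.2 at 72 h.

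Among 12 genes of protein kinase C and other phorbol receptors, the direct targets of PMA, 9 had members, and 27 of 32 Jun regions at these were called higher and 0 lower in edgeR. PRKCE, the epsilon isoform, had 7, and the strongest (chr2:45743055-45744464) had 0.227 and 0.527 CPM at 0 h, 1.12 and 0.935 at 6 h and, at 72 h, 30.4 and 34.5, with Jun up by 2.43 ± 0.252 (edgeR adjusted p = 1.51e-07). RASGRP3, a diacylglycerol-responsive activator of Ras, had 6, with 1.14 and 0.843 CPM at 0 h and 15.02 and 16.2 at 72 h at the strongest (chr2:33529616-33530641). Of 15 AP-1 and related bZIP genes, 13 had members, and of 43 Jun regions there 28 were called higher and 2 lower. BACH2, a repressor that pairs with small Maf proteins, had 18, and its strongest member (chr6:89984416-89987093) went from 3.07 and 2.74 CPM through 7.0 and 5.46 to 52.2 and 59.8, with Jun up by 1.54 ± 0.242 (edgeR adjusted p = 2.11e-05). ATF3 had 3, the strongest (chr1:212634631-212637422) with 3.8 and 4.90 CPM at 0 h, 8.75 and 7.53 at 6 h and then 54.6 and 59.2 at 72 h. Its Jun change of 0.60 ± 0.196 (edgeR adjusted p = 0.0134) was no longer called with 1 library left out (adjusted p up to 0.161).

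Of 20 adhesion and cytoskeleton genes, 14 had members, and 27 of 33 Jun regions at these were called higher and 0 lower in edgeR. At 2 of this list's 36 members H3K27ac was lower at 72 than at 0 h. MYLK, myosin light chain kinase, had 8, and its strongest member (chr3:123813691-123815186) had 0.568 and 0.685 CPM at 0 h, 1.05 and 0.591 at 6 h and, at 72 h, 17.7 and 18.2, with Jun up by 2.19 ± 0.266 (edgeR adjusted p = 9.66e-07). ITGA3, integrin alpha 3, had 4, with the strongest (chr17:50047251-50048119) at 0.284 and 0.211 CPM at 0 h, 4.76 and 2.95 at 6 h and then 17.1 and 16.1 at 72 h. MYH9, non-muscle myosin, had 5, of which the strongest had no Jun peak in any library. Of 13 TGF-beta genes, 9 had members, led by LTBP1, a carrier of latent TGF-beta, with 14. The strongest of these (chr2:33341769-33343219) went from 1.53 and 0.738 CPM through 4.34 and 3.89 to 38.0 and 46.5, with Jun up by 2.01 ± 0.249 (edgeR adjusted p = 1.24e-06). Of 33 Jun regions at this list's members, 24 were called higher and 2 lower. Matrix and protease genes had members at 8 of 16, with 12 of 15 Jun regions called higher and 0 lower in edgeR. The strongest by PLAUR, the urokinase receptor (chr19:43634837-43636914), went from 0.965 and 1.37 CPM through 8.75 and 9.89 to 27.8 and 27.2.

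Of 16 chemokine and cytokine genes, 11 had members, and 17 of 19 Jun regions were called higher and 0 lower in edgeR. CCL2, which attracts monocytes, had 3, and the strongest (chr17:34246087-34247395) went from 0.398 and 0.58 CPM through 5.74 and 5.12 to 27.7 and 31.4, with Jun up by 2.40 ± 0.232 (edgeR adjusted p = 6.62e-08). CCL3 had 3, and the strongest (chr17:36081605-36083727) went from 0.227 and 0.527 CPM through 2.66 and 2.71 to 29.1 and 28.2. Immediate early genes had members at 7 of 12 (6 of 11 Jun regions called higher, 0 lower in edgeR), led by IER3 with 4, whose strongest (chr6:30748044-30749749) went from 5.85 and 4.48 CPM through 13.9 and 18.9 to 56.0 and 59.7. MAP kinase feedback genes had them at 8 of 12 (13 of 15 Jun regions higher, 0 lower in edgeR). DUSP5, a phosphatase of ERK, had 3, and the strongest (chr10:110491306-110492103) went from 0.284 and 0.211 CPM through 3.08 and 2.02 to 15.7 and 14.9.

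Of 10 NF-kappaB genes, 4 had members, and of 7 Jun regions there 3 were called higher and 2 lower. The member by NFKB1, a subunit of NF-kappaB (chr4:102619890-102621201), went from 2.04 and 1.00 CPM of H3K27ac at 0 h through 4.55 and 5.36 to 9.59 and 8.78 at 72 h, with Jun up by 2.43 ± 0.261 (edgeR adjusted p = 2.27e-07). The strongest by NFKBIA, which holds NF-kappaB in the cytoplasm (chr14:35397303-35397926), went from 0.568 and 1.16 CPM through 4.69 and 3.94 to 5.43 and 4.48, with Jun up by 1.99 ± 0.445 (edgeR adjusted p = 0.000775). In contrast to both, the strongest member at TNFAIP3, an inhibitor of NF-kappaB (chr6:137866222-137866906), had 25.0 and 26.0 CPM of H3K27ac at 0 h, 19.5 and 24.0 at 6 h and, at 72 h, 13.8 and 13.6, so that both 72 h libraries were the lowest although peaks were called in them alone. Jun fell there by 1.26 on the log2 scale (SE 0.185, edgeR adjusted p = 9.48e-06). A member in CCND3, cyclin D3, among the 4 of 8 cell cycle genes with any (chr6:41939208-41940221), had 44.0 and 47.4 CPM at 0 h, 18.3 and 22.4 at 6 h and then 29.9 and 30.8 at 72 h, so that both 72 h libraries lay below the 0 h libraries and above the 6 h libraries. Of 5 Jun regions at the cell cycle list's members, 1 was called lower and the others did not pass the test. DNA replication genes had members at 5 of 12 (3 of 5 Jun regions higher, 0 lower in edgeR), near the share of all protein-coding genes, and the strongest by MCM6 (chr2:135819460-135820876) lay in the neighbouring LCT.

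Put side by side, the 15 lists had median Jun log2 fold changes from 0 to 72 h of 0.12 to 2.09 at the Jun regions of their members, where the median was 0.17 over all Jun regions and 1.30 over those at members. The matrix and protease genes had the highest median, followed by the adhesion and cytoskeleton genes at 1.65, the MAP kinase feedback genes at 1.48, the protein kinase C genes at 1.44, the TGF-beta genes at 1.43 and the megakaryocyte and platelet genes at 1.37. The chemokine and cytokine genes (1.31), the AP-1 genes (1.29), the megakaryocyte transcription factor genes (1.20), the DNA replication genes (1.17) and the immediate early genes (1.03) came next. The erythroid genes were at 0.64 over 6 Jun regions, of which 3 were called higher, and the monocyte and macrophage genes at 0.63 over 5, of which 2 were called higher. The NF-kappaB genes, at 0.25 over 7, and the cell cycle genes, at 0.12 over 5, stood lowest. In edgeR, 9 lists had 0 Jun regions called lower. Of these, the protein kinase C and the adhesion genes each had 1 lower at an unadjusted p under 0.05. The matrix, chemokine, immediate early, MAP kinase feedback, erythroid, monocyte and macrophage, and DNA replication genes had 0 lower there, and DESeq2 called 0 lower in all 9. The lists were chosen with earlier results known and hold few regions, so nothing particular to a list is drawn from these values.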

How the data were processed

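CUT&RUN of 22 K562 libraries was analysed from 2 kinds of deposited file. In the 4 deposited region tables each value is a raw read count, and the deposited peak lists give positions with fold enrichment (a ratio) and −log10 q-values per library. The region tables also hold the authors' log2 fold changes and labels per region (per the file headers). The submitters' processing notes name Trim Galore 0.4.3, BWA 0.7.17, SAMtools 1.9, MACS2, bedtools 2.26 and deepTools 3.0.1, and both hg19 and hg38; contig names follow GRCh38. Coordinates are printed 1-based.

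For each antibody, edgeR 4.0.16 (filterByExpr, TMM, quasi-likelihood test, Benjamini-Hochberg over all tested regions, no replicate block) was fitted on all times of that antibody. The filter on low counts could be met by the libraries of a single time. CPM used TMM library sizes; SE is the fold change over the root of F. Among 200 simulated 4-fold changes per antibody between 0 and 72 h, 83.5% were recovered over 128549 Jun, 86% over 56008 CTCF and 74.5% over 84774 Rad21 regions. The changed regions were drawn only above a lower limit on mean count, with a fixed spread not estimated from these libraries. Recovery at regions of lower count was not measured. The members, gene lists and tests were chosen with earlier results of these data known. Members on chromosome 8 were counted but not named. Named elsewhere: the 8 members highest at 72 h, the 10 spans with most members, up to 3 genes per list, and per antibody the largest non-overlapping called changes. Motifs were planned for genome windows; promoters were searched instead. Gene names and promoters are RefSeq GRCh38.p14. Counts were not corrected for copy number. Alternatives were other scalings, DESeq2 1.42.0, filters, stricter peaks and left-out libraries. Same-numbered replicates deviated together with correlations from −0.008 to 0.124. The labels do not say whether the numbers pair samples. These correlations cannot decide it, since counting error in each library lowers them.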

Additional observations from a re-analysis of the deposited data

How the results depend on the processing

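Of 107 alternatives to the main results, 67 stayed within 1.5 times (counts) or 1 SD between replicates (levels and shares) and 40 moved. Counts and shares have no direction to reverse. The median log2 fold change of Jun, CTCF or Rad21 at members was below 0 in 0 of the alternatives. Counts of Jun regions called higher at members were 10604 (72 against 0 h), 3906 (6 against 0 h) and 6699 (72 against 6 h). DESeq2 gave 2581 for 6 against 0 h and 3589 for 72 against 6 h, and scaling on regions with a peak in every library gave 11402 for the latter. Members with 72 h peaks of −log10 q of at least 10 held 4552, 1751 and 3169. Leaving out 1 library gave 7757 to 11106, 2640 to 3661 and 3024 to 6861. For CTCF (538), total counts gave 1134, DESeq2 148, a mean count of at least 50 gave 51, fitting 2 times alone 1165, regions covering the member's centre 234, the stricter members 312 and left-out libraries 0 to 1027. For Rad21 (3525) these were 1699 with DESeq2, 205 with the mean count filter, 1889 at the centre, 1974 in stricter members and 1639 to 3410 with libraries left out. A fit of 2 times alone is the main one for Rad21.

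Members numbered 5237 with the stricter peaks, 8654 where the 72 h peak covered at least 0.5 of the region, and 16634 to 22496 with 1 library left out. The share of members with Jun in both 72 h libraries (81.4%) became 61.7% with stricter Jun peaks, 74.1% with the summit inside, 92.8% in stricter members and 84.1% to 86.1% with 1 Jun library. The median H3K27ac log2 fold change was 1.45 (72 against 6 h) and 1.69 (6 against 0 h) with total counts, 1.83 and 1.71 with every-peak scaling, and 1.47 to 1.63 and 1.26 to 1.40 with libraries left out.

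A replicate block gave 10403, 3857 and 6448 for Jun, 717 for CTCF and 3646 for Rad21, and ended no result. For the 15 named regions, 177 of 192 alternatives kept the call, 15 lost it and 0 reversed. The CTCF libraries held 2553677 to 6068421 counts each.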

Other observations

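Members were spread over all chromosomes analysed. They made up 17.04% of all regions, with the lowest share on chromosome 19 (11.7% of 3390 regions) and the highest on chromosome 20 (19.6% of 2506).

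The authors' deposited table gives each region a label, which did not follow the direction of its fold changes. Of the members, 2384 were labelled downEarly and 538 downLate, with median log2 fold changes at 72 h in the authors' deposited table of 3.84 and 3.83. Those labelled upLate (7086) had 3.95 and those labelled upEarly (824) had 3.90 in the authors' deposited table, and 5337 were labelled static, at 1.05. The labels were therefore not used.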
